A study of Canis lupus familiaris with 6 samples.

Results

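The genes described here encode enzymes that remove peroxide and superoxide, namely the peroxiredoxins PRDX1 to PRDX6, catalase (CAT), the superoxide dismutases SOD1 and SOD2, and glutathione peroxidase 4 (GPX4). They were chosen by name in the gene table, and 9 of the 10 were found there, among 35993 genes. GPX4, the enzyme that reduces lipid hydroperoxides, had no row under its symbol and was not analysed here. All 9 genes passed the filter on low counts, with 14708 genes tested in all. CPEK is a line of canine progenitor epidermal keratinocytes, labelled as wild type. The cells were exposed directly for 30 s to cold atmospheric microwave plasma (CAMP), an argon jet ignited by microwaves (dCAMP, 3 libraries), or for as long to the gas without plasma (gas, 3 libraries). Both groups grew in the same medium with serum and antibiotics. It was renewed 15 min after the exposure and RNA was taken 24 h after that, so the libraries report on 1 late time point in 1 cell line. Nothing in the labels says that the libraries came from separate cultures, and the p-values measure only the spread between these samples.

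Superoxide is turned into hydrogen peroxide by superoxide dismutases, and hydrogen peroxide is then reduced to water by peroxiredoxins, glutathione peroxidases and catalase. Each compartment of the cell holds its own set. SOD1, PRDX1, PRDX2 and PRDX6 work mainly in the cytosol, SOD2 and PRDX3 in the mitochondrial matrix, PRDX4 in the endoplasmic reticulum and catalase in peroxisomes, while PRDX5 is found in mitochondria, peroxisomes and cytosol. Most peroxiredoxins are recycled by thioredoxin, and PRDX6 by glutathione. Cold plasma delivers reactive oxygen species to the medium, and these enzymes are among the cell's means of clearing them.

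The libraries held 43084921 to 54082634 counts, and single counts of the 9 genes ranged from 2038 to 107375. The gas libraries differed more from each other than the dCAMP libraries did. On the first principal component of log2 CPM, which held 71.2% of the variance, gas libraries 1, 2 and 3 lay at −94.1, −23 and 21.7 and the dCAMP libraries at 28.6 to 33.6. Genes of up to 1000 bases had a median log2 deviation of 0.16 from their mean in gas 1 and of −0.04 to −0.03 in the dCAMP libraries, while genes over 4000 bases had −0.2 and 0.08 to 0.12. For these short and long genes gas 2 had 0.09 and −0.09, and gas 3 had −0.01 and 0.08. Of the keratinocyte markers, 8 of 8 were detected, with a summed level of 18900 to 23800 FPKM in the gas and 17600 to 18700 FPKM in the dCAMP libraries. KRT5 (9100 to 11200 against 8480 to 9150 FPKM) and KRT14 (8520 to 11100 against 7730 to 8230 FPKM) held most of that sum. DSG3 (144, 167 and 210 against 244, 248 and 254 FPKM) and CDH1 (88.2 to 88.9 against 90.8 to 95.1 FPKM) were higher in every dCAMP library. The groups overlapped for KRT5, KRT15, TP63, ITGB4 and PKP1. The fibroblast, melanocyte, leukocyte and endothelial lists summed to at most 3.13 FPKM in any library, and DCN, LUM, TYR, DCT, TYRP1, PTPRC, CD3E and PECAM1 were at 0 in all 6. The part of the keratinocyte marker differences in the results below was not tested.

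Levels of different genes were compared on FPKM, which the authors scaled for transcript length. PRDX1, a thioredoxin-dependent peroxidase of the cytosol, was the most abundant of the 9 enzymes by a wide margin, with 1899 ± 162 FPKM under gas and 1621 ± 85.7 after dCAMP (SD, n = 3 each). By mean FPKM it ranked 21 among the 14708 genes tested. It made up 73.0% to 74.6% of the summed FPKM of the 6 peroxiredoxins in every library, and its mean was 9.62 times that of PRDX6 in gas and 8.81 times after dCAMP.

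Below PRDX1, a middle group followed. PRDX6 had 197.5 ± 15.5 FPKM, SOD1 198 ± 15.1, PRDX5 194.8 ± 39 and PRDX2 172.2 ± 25.2 in the gas control (SD, n = 3). The gas libraries of neighbours in this group overlapped, so their order was not resolved in gas. In dCAMP-treated cells PRDX6 (183.9 ± 2.55 FPKM) and SOD1 (179 ± 3.31) overlapped, and both lay above PRDX5 (160.5 ± 1.4), which lay above PRDX2 (131 ± 4.01). The only SOD1 transcript of the table is 402 bases long, shorter than a full SOD1 mRNA. The FPKM of SOD1 may therefore be too high, and its place in this order is uncertain.

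The lowest levels belonged to the mitochondrial, peroxisomal and endoplasmic reticulum enzymes. In the gas control PRDX3 had 59.19 ± 14.6 FPKM, CAT 49.06 ± 0.0621, PRDX4 43.64 ± 3.81 and SOD2 24.87 ± 5.81 (SD, n = 3). PRDX3 and CAT overlapped in gas and were apart in dCAMP-treated cells, with 70.71 ± 3.2 and 54.01 ± 0.948 FPKM. SOD2, the lowest of the 9 in both groups, still ranked 2755 among the 14708 genes tested. Summed per compartment, the cytosolic enzymes reached 2467 ± 215 FPKM in gas and 2115 ± 94.1 in dCAMP-treated cells, and the mitochondrial pair 84.06 ± 20.3 and 103.8 ± 3.17.

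**Figure D1:**
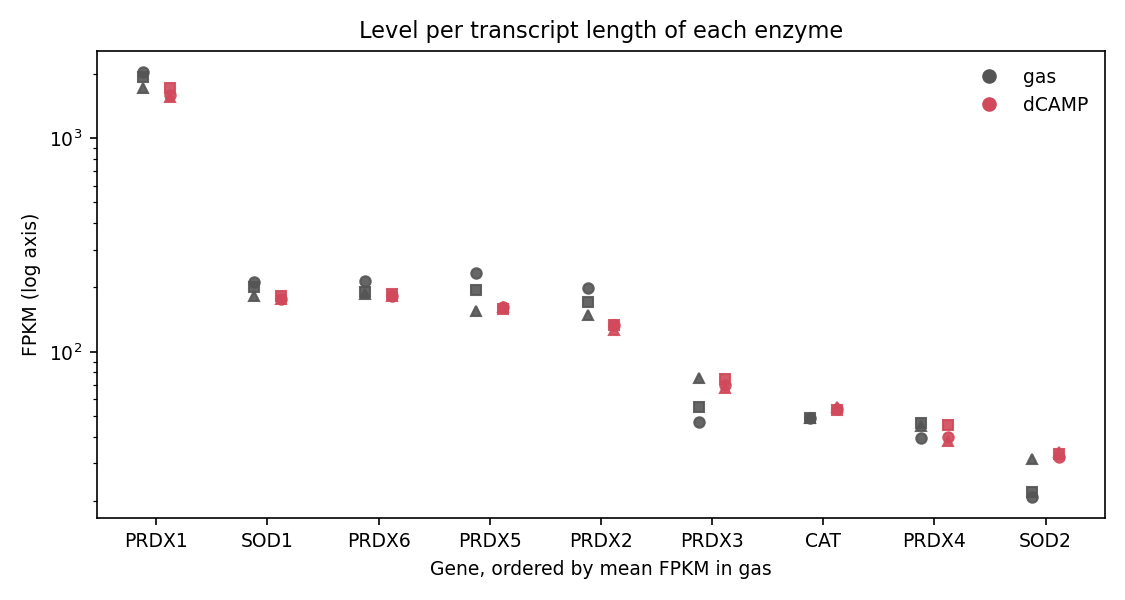
FPKM (log axis) of the 9 enzymes in each library, ordered by the gas mean, with gas libraries in grey and dCAMP libraries in red (circle, square and triangle for libraries 1, 2 and 3). PRDX1 stands apart at 1557 to 2040 FPKM, and SOD2 is lowest at 20.99 to 33.79 FPKM.

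The comparison of dCAMP with gas asked whether transcripts of these enzymes differed 24 h after the medium change that followed the exposure. On CPM (read counts scaled to the TMM-normalized library size), the 4 cytosolic enzymes were each lower in the 3 dCAMP libraries than in the 3 gas libraries, and SOD2 and CAT were each higher. The quasi-likelihood test of edgeR, adjusted by Benjamini-Hochberg over all genes tested, gave 0 of the 9 an adjusted p under 0.05, as it did 0.0% of all genes, and the 9 adjusted p-values ran from 0.221 to 0.642. DESeq2 also called 0 of the 9, against 2.59% of the genes to which it gave an adjusted p. Both tools gave 2 of the 9 an unadjusted p under 0.05, against 20.7% of all genes in edgeR and 17.3% in DESeq2, and 0 of the 9 also reached a 2-fold change in edgeR, against 1.09%. The groups did not overlap for 6 of the 9, against 39.9% of all genes. Differences are given below as the log2 fold change of dCAMP over gas (log2FC) with its standard error (SE). In bulk RNA, a change in the number of cells of a type and a change in RNA per cell cannot be told apart.

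Among the cytosolic enzymes, PRDX2 (chromosome 20, bases 49352271 to 49356755 of CanFam3.1, gene ID 100856470), a peroxiredoxin abundant in red cells and also present in the cytosol of most cells, differed most. Its expression was 219, 193 and 169 CPM in gas libraries 1, 2 and 3, against 151, 150 and 143 CPM after dCAMP. The groups did not overlap, and gas 3 was the gas library nearest to them. The log2FC was −0.39 (SE 0.11, edgeR adjusted p = 0.221, unadjusted p = 0.0117 in the same fit across all genes). Its locus overlaps that of RNASEH2A over 674 bases, and RNASEH2A had log2FC −0.36 (SE 0.15). RNASEH2A ends at base 49352944, and the main PRDX2 transcript, with 98.1% to 99.5% of the counts, starts at 49353019. Only the minor PRDX2 transcript, with 47 to 122 counts per library, reaches into RNASEH2A. How reads on overlapping genes were counted is not given in the sources used here.

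PRDX1 (chromosome 15, bases 14834009 to 14855665, gene ID 475375) had 2089, 2039 and 1830 CPM under gas against 1677, 1793 and 1632 CPM after dCAMP. The highest dCAMP library lay just under the lowest gas library. The log2FC was −0.22 (SE 0.08, edgeR adjusted p = 0.226). A pseudogene of PRDX1, LOC475156, held 3 to 11 counts and could take little of its reads.

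SOD1 (chromosome 31, bases 26540291 to 26544212, gene ID 403559), the copper and zinc superoxide dismutase, had 94.6, 92 and 84.3 CPM under gas against 81.6, 83.2 and 80.9 CPM after dCAMP, with log2FC −0.14 (SE 0.08, edgeR adjusted p = 0.317). All 3 gas libraries lay above the dCAMP range, gas 3 by the smallest margin. PRDX6 (chromosome 7, bases 25663238 to 25675855, gene ID 480069), which carries phospholipase activity beside its peroxidase activity, had 389, 356 and 349 CPM under gas against 339, 344 and 339 CPM after dCAMP. Its log2FC was −0.10 (SE 0.07, edgeR adjusted p = 0.396), the smallest of the cytosolic group. In all, 4 of the 9 members had dCAMP libraries below every gas library, all 4 of them cytosolic, against 20.9% of the genes tested. On FPKM the groups overlapped for SOD1, with 182 in gas 3 against 182.9 in dCAMP 2, and for PRDX6, with 185.9 against 186.8.

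The mitochondrial pair had the opposite sign. SOD2 (chromosome 1, bases 48943472 to 48955158, gene ID 476258), the manganese superoxide dismutase, had 85.4 and 92.3 CPM in gas libraries 1 and 2 but 133 CPM in gas 3, and 135, 138 and 141 CPM in the dCAMP libraries. The groups were separate, with gas 3 next to the dCAMP libraries and far from the other gas libraries. The log2FC was 0.41 (SE 0.18, edgeR adjusted p = 0.244). This was the largest of the 9 in size in that fit, but PRDX2 was larger with upper-quartile factors (−0.48 against 0.34) and with the length trend removed (−0.34 against 0.29). It was also larger with that and a replicate block (−0.33 against 0.3) and with at least 10 counts in every library (−0.41 against 0.39). The same held without gas 1 (−0.31 against 0.27), gas 2 (−0.42 against 0.31), dCAMP 2 (−0.43 against 0.39) or dCAMP 3 (−0.4 against 0.37). In DESeq2, with RLE factors and without a filter, both were 0.4 in size.

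PRDX3 (chromosome 28, bases 29395593 to 29403745, gene ID 477839), the thioredoxin-dependent peroxidase of mitochondria, had 80.3, 97.3 and 134 CPM in gas libraries 1, 2 and 3, against 123, 129 and 119 CPM after dCAMP. Gas 3 exceeded every dCAMP library, so the groups overlapped. The log2FC was 0.26 (SE 0.19, edgeR adjusted p = 0.383), and 0.09 without gas 1.

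CAT (chromosome 18, bases 33383005 to 33422447, gene ID 403474), which breaks hydrogen peroxide down without a reducing partner, had the least spread of the 9 among the gas libraries. It had 121, 124 and 126 CPM under gas against 137, 134 and 139 CPM after dCAMP. The groups did not overlap, and all 3 gas libraries lay close together, gas 3 included. The log2FC was 0.14 (SE 0.07, edgeR adjusted p = 0.278). SOD2 and CAT were the members with every dCAMP library above every gas library, 2 of 9 against 19.0% of the genes tested.

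PRDX5 and PRDX4 did not separate the groups. PRDX5 (chromosome 18, bases 52750977 to 52754432, gene ID 476032) had 312, 266 and 216 CPM in gas libraries 1, 2 and 3, against 222, 216 and 220 CPM after dCAMP, with log2FC −0.27 (SE 0.14, edgeR adjusted p = 0.278). Gas 3 was level with the lowest dCAMP library, and gas 1 and gas 2 lay above all 3. The locus overlaps that of TRMT112 over 54 bases, with log2FC −0.21 (SE 0.09) for TRMT112. PRDX4 (chromosome X, bases 19361658 to 19383718, gene ID 100856588), which uses peroxide during protein folding in the endoplasmic reticulum, had 45.5, 54.9 and 54.1 CPM under gas against 47.7, 53 and 45.1 CPM after dCAMP. Its log2FC of −0.08 (SE 0.12, edgeR adjusted p = 0.642) was smaller than its SE.

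**Figure D2:**
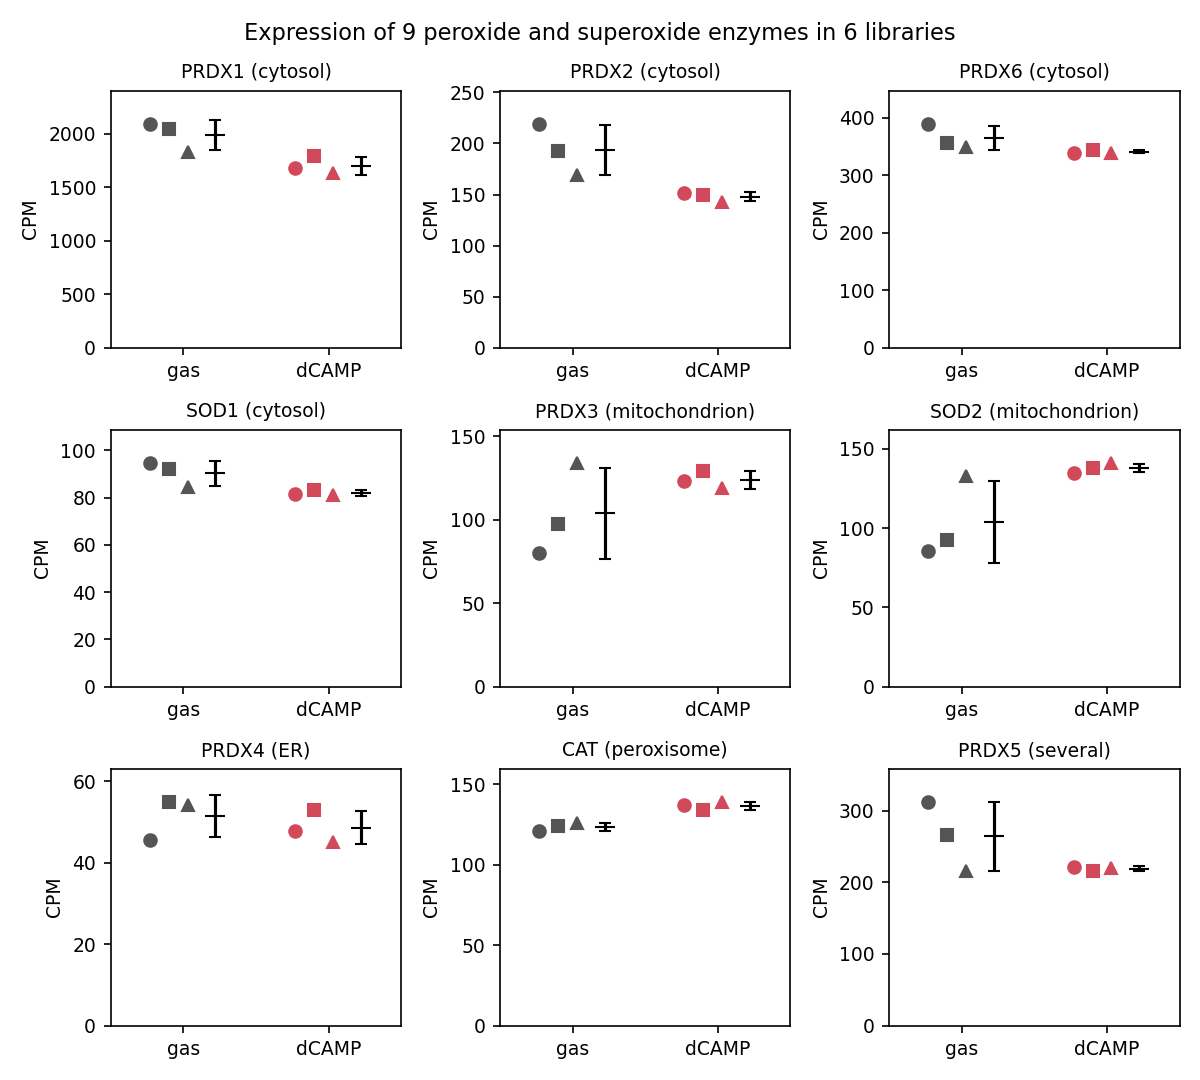
CPM of each enzyme in the 3 gas (grey) and 3 dCAMP (red) libraries, with circle, square and triangle for libraries 1, 2 and 3 and a black mean with SD (n = 3); every axis starts at 0. The dCAMP libraries lie below the gas libraries for PRDX1, PRDX2, PRDX6 and SOD1 and above them for SOD2 and CAT, while gas 3 is level with the dCAMP libraries for PRDX5 and lies above them for PRDX3.

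The edgeR calls at an adjusted p under 0.05 depended on gas 3. It was the gas library nearest to the dCAMP mean for 8 of the 9 members, as it was for 68.9% of all genes tested, and gas 1 was the farthest for 8 of the 9, as for 74.3% of all genes. PRDX4 was the exception in both counts. On log2 CPM the range of the gas libraries was wider than that of the dCAMP libraries for 9 of 9 members and for 81.6% of all genes. For CAT both ranges rounded to 0.06, and on FPKM its dCAMP libraries spread more (SD 0.948 against 0.0621 in gas). Without gas 3, edgeR gave 5 members an adjusted p under 0.05, 2 higher and 3 lower, against 33.1% of all genes (15.0% higher and 18.1% lower). These were PRDX1 (log2FC −0.33, edgeR adjusted p = 0.0233), PRDX2 (−0.52, 0.0214), PRDX5 (−0.45, 0.0243), PRDX3 (0.43, 0.0315) and SOD2 (0.59, 0.0203). SOD1, PRDX6, CAT and PRDX4 had edgeR adjusted p-values of 0.0553, 0.103, 0.252 and 0.574 in that fit, with log2FC −0.23, −0.18, 0.11 and −0.09. Leaving out gas 1 moved PRDX5 to −0.16, SOD2 to 0.27, PRDX3 to 0.09 and PRDX4 to −0.18. PRDX4 was also at −0.18 without dCAMP 2. In the other 5 fits without 1 library, edgeR called none of the 9 with an adjusted p under 0.05, and 1 or 2 had an unadjusted p under 0.05. Over all alternatives and fits without 1 library, the adjusted p ran from 0.000222 to 0.886 among the 9 members. The lowest values came from voom in limma, weighted by sample quality, which set gas 2 at 6.73 against 0.115 for gas 1 and 0.192 for gas 3 and called 8 of the 9, 3 higher and 5 lower, against 60.8% of all genes (32.6% higher and 28.2% lower).

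The members also differ in length, from 402 bases for SOD1 to 3660 for SOD2. With each library's trend on gene length removed, the log2FC was 0.29 for SOD2, 0.29 for PRDX3, −0.34 for PRDX2, −0.17 for PRDX1 and −0.08 for SOD1, and the signs of all 9 were as before. PRDX1 no longer had an unadjusted p under 0.05 in that fit, nor with the replicate number added to it as a block. The same held in limma on the log2 of FPKM plus 1 (unadjusted p = 0.0785) or plus 0.1 (0.0625).

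**Figure D3:**
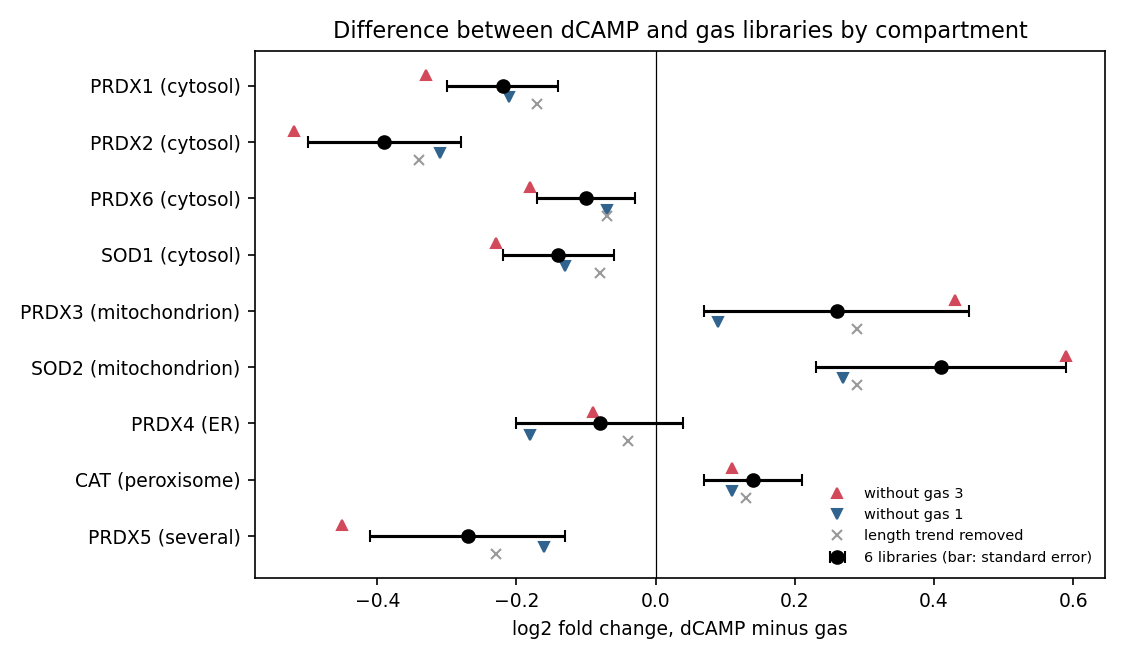
Log2FC of dCAMP over gas for each enzyme, grouped by compartment, from all 6 libraries (black, bar for SE), without gas 3, without gas 1 and with the gene length trend removed. The 4 cytosolic enzymes lie left of 0 and the mitochondrial pair right of 0 in all 4 settings, with values of −0.52 to −0.07 and 0.09 to 0.59.

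Enzymes that do the same reaction in different compartments were compared as ratios within each library, which do not depend on the scaling of the libraries. The ratios still carry each library's trend on gene length, which was not removed from them. In gas 1 that trend was −0.16 for SOD2 and 0.1 for SOD1 on the log2 scale. The 7 ratios computed were chosen after the values were seen, and an exact two-sided permutation test of 3 against 3 libraries cannot go below p = 0.1. The ratio of SOD2 to SOD1 on FPKM was 0.0991, 0.11 and 0.173 in gas libraries 1, 2 and 3, against 0.182, 0.182 and 0.191 after dCAMP. Gas 3 was close to the dCAMP values, and the groups did not overlap (log2 difference 0.58, exact permutation p = 0.1, adjusted p = 0.14 over 7 ratios). The log2 difference was 0.82 without gas 3 and 0.42 without gas 1.

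The ratio of PRDX3 to PRDX2 was 0.237, 0.325 and 0.509 under gas against 0.526, 0.555 and 0.538 after dCAMP, a log2 difference of 0.67 (exact permutation p = 0.1, adjusted p = 0.14), 0.96 without gas 3 and 0.41 without gas 1. The groups were again apart, with gas 3 at the edge. The ratio of PRDX3 to PRDX1 was 0.023, 0.0286 and 0.0437 under gas against 0.0441, 0.0432 and 0.0436 after dCAMP, where gas 3 lay inside the dCAMP range (log2 difference 0.51, 0.77 without gas 3 and 0.3 without gas 1, exact permutation p = 0.3, adjusted p = 0.3). Between members of the cytosol, the ratio of PRDX1 to PRDX2 differed by 0.16 and that of PRDX1 to SOD1 by −0.08 on the log2 scale (exact permutation p = 0.1 and adjusted p = 0.14 for each), and the former by 0.1 without gas 1.

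The thioredoxin system recycles oxidized peroxiredoxins, with TXN and its reductase TXNRD1 in the cytosol, TXN2 and TXNRD2 in mitochondria, and sulfiredoxin (SRXN1) repairing overoxidized peroxiredoxins. Of the 7 genes of this list, all tested, 0 had an adjusted p under 0.05 in edgeR, 1 was higher and 1 lower in dCAMP-treated cells at an unadjusted p under 0.05 (against 6.81% and 13.9% of all genes), and the median log2FC was −0.01, against 0.03 over all genes tested. TXN2 and TXNRD2 had negative log2FC values and PRDX3 a positive one, while TXN and TXNRD1 had positive values and PRDX1 and PRDX2 negative ones. TXN2 had 116, 111 and 89.2 CPM under gas against 83.1, 84.8 and 87.7 CPM after dCAMP, with log2FC −0.31 (SE 0.12, edgeR adjusted p = 0.235). The groups were separate, with gas 3 at the margin, and the unadjusted p was not under 0.05 with the length trend removed (log2FC −0.27). Nor was it under 0.05 with a replicate block, with both, or in limma on the log2 of FPKM plus 0.1. TXNRD2 had 17.7, 16.1 and 14.2 CPM against 13.7, 13.8 and 13.2 CPM, with log2FC −0.24 (SE 0.12, edgeR adjusted p = 0.271).

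In the cytosol, TXNRD1 had 131, 142 and 160 CPM under gas against 176, 183 and 161 CPM after dCAMP, with log2FC 0.27 (SE 0.11, edgeR adjusted p = 0.238). The groups were apart, with the lowest dCAMP library just above gas 3. The log2FC of TXNRD1 was 0.18 without gas 1, 0.19 with upper-quartile factors and 0.13 with the length trend removed. The unadjusted p was not under 0.05 with those factors, with that trend removed, with a replicate block, with both, without a filter or in DESeq2. TXN, listed as LOC474798 and matched through its gene ID, had 914, 1658 and 1864 CPM under gas against 1848, 2136 and 2029 CPM after dCAMP, with log2FC 0.44 (SE 0.25, edgeR adjusted p = 0.31). Gas 1 was lowest, gas 2 also lay below every dCAMP library and gas 3 lay inside their range. The log2FC was 0.17 without gas 1. The ratio of PRDX1 to TXN on FPKM was 2.16, 1.16 and 0.93 under gas against 0.859, 0.795 and 0.761 after dCAMP, a log2 difference of −0.72 (exact permutation p = 0.1, adjusted p = 0.14), −0.37 without gas 1. The −0.72 was the largest of the 7 differences in size. Without gas 1, the differences for SOD2 to SOD1 (0.42) and PRDX3 to PRDX2 (0.41) were larger. The ratio of PRDX3 to TXN2 was 0.607, 0.767 and 1.31 under gas against 1.3, 1.34 and 1.19 after dCAMP, and these groups overlapped (log2 difference 0.58, 0.9 without gas 3 and 0.34 without gas 1, exact permutation p = 0.3, adjusted p = 0.3). SRXN1 had 83.4 to 92 CPM in gas and 84.9 to 89.3 CPM in dCAMP-treated cells, with log2FC −0.01 (SE 0.08), which was 0.01 without gas 1. TXNIP, the thioredoxin inhibitor, had log2FC 0.03 (SE 0.09), which was −0.05 with upper-quartile factors.

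**Figure D4:**
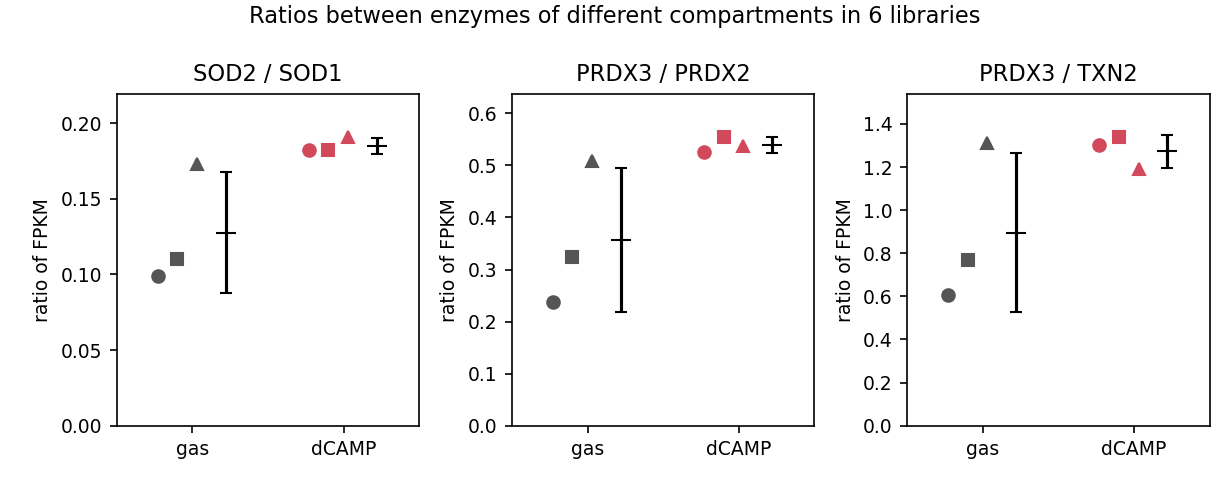
Ratios of FPKM of SOD2 to SOD1, PRDX3 to PRDX2 and PRDX3 to TXN2 in the gas (grey) and dCAMP (red) libraries, with the mean and SD (n = 3) in black and axes from 0. Gas 1 and gas 2 lie lowest in each panel, gas 3 near the dCAMP libraries, and the first and second ratios do not overlap between groups.

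Glutathione peroxidases and glutathione synthesis form the other route of peroxide removal. Of the 12 genes listed, 11 were tested and 0 had an adjusted p under 0.05 in edgeR. GLRX was higher and GPX1 lower at an unadjusted p under 0.05, against 6.81% and 13.9% of all genes. The median log2FC was 0.23, against 0.03 over all genes tested. GPX1, a selenoprotein peroxidase, had 690, 657 and 560 CPM under gas against 531, 519 and 506 CPM after dCAMP. The groups did not overlap, and the log2FC was −0.29 (SE 0.10, edgeR adjusted p = 0.221), of the same sign as the cytosolic peroxiredoxins. With both the length trend removed and a replicate block, the unadjusted p of GPX1 was not under 0.05. GPX2, the epithelial form, had 465, 400 and 354 CPM under gas against 378, 368 and 378 CPM after dCAMP, which overlapped (log2FC −0.12, SE 0.11, but −0.03 without gas 1 and −0.25 without gas 3). GSR, which regenerates reduced glutathione, had 150, 172 and 194 CPM against 204, 210 and 203 CPM, with log2FC 0.26 (SE 0.11, edgeR adjusted p = 0.244) and 0.15 without gas 1. GLRX, a glutaredoxin, had 12.8, 15.7 and 14.9 CPM against 18.1, 19.2 and 17.9 CPM, with log2FC 0.34 (SE 0.12, edgeR adjusted p = 0.222). With upper-quartile factors GLRX had 0.26 and no unadjusted p under 0.05.

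CCS, the chaperone that loads copper into SOD1, had 17.1, 13.1 and 12.4 CPM under gas against 12.8, 13.6 and 11.9 CPM after dCAMP, with log2FC −0.15 (SE 0.15, edgeR adjusted p = 0.509). It was −0.02 without gas 1, −0.24 without gas 2, −0.29 without gas 3 and −0.23 without dCAMP 2. SOD3, the extracellular superoxide dismutase, had 8 counts in dCAMP library 1 and 0 in the other 5 libraries, where up to 3 counts could have been missed, and was not tested.

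Selenocysteine incorporation, which GPX1, GPX4 and the thioredoxin reductases need, was covered by 5 genes, of which 0 had an adjusted p under 0.05 in edgeR and 2 were lower at an unadjusted p under 0.05, against 13.9% of all genes. Of the other 3, named after their values were seen, SEPSECS had 33.3, 62.3 and 87.3 CPM under gas against 85.5, 90.2 and 81.6 CPM after dCAMP (log2FC 0.49, SE 0.32, 0.18 without gas 1 and 0.8 without gas 3), PSTK had log2FC 0.18 (SE 0.13, 0.06 without gas 1) and SEPHS2 −0.10 (SE 0.07). SECISBP2, which binds the selenocysteine insertion element, had 60.3, 53.8 and 51.6 CPM under gas against 41.4, 47 and 39.5 CPM after dCAMP, with log2FC −0.37 (SE 0.11, edgeR adjusted p = 0.221). EEFSEC, the selenocysteine elongation factor, had log2FC −0.36 (SE 0.13, edgeR adjusted p = 0.224). Its unadjusted p was not under 0.05 with a replicate block, with or without the length trend removed.

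Of the 10 genes for peroxisomal import and oxidases, 9 were found, 8 were tested and 0 had an adjusted p under 0.05 in edgeR. At an unadjusted p under 0.05, 2 were higher and 0 lower, against 6.81% and 13.9% of all genes. By sign, 5 of the 8 had positive and 3 negative log2FC values. PEX7, an import receptor, had 17.7, 18.5 and 19.8 CPM under gas against 24, 22 and 23 CPM after dCAMP, with log2FC 0.30 (SE 0.10, edgeR adjusted p = 0.221). The groups did not overlap, and with upper-quartile factors the log2FC was 0.22 with no unadjusted p under 0.05. Nor was the unadjusted p under 0.05 with a replicate block, with or without the length trend removed. The 3 genes with negative values, named after those were seen, were PEX5, the receptor that imports catalase (log2FC −0.21, SE 0.09, 105, 97.9 and 89.7 CPM under gas against 85, 86.7 and 80.6 CPM after dCAMP), PEX14 (−0.33, SE 0.14) and PEX10 (−0.31, SE 0.2). The groups did not overlap for PEX5 and overlapped for PEX14 and PEX10.

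Among 11 oxidases that make peroxide or superoxide, with their subunits and maturation factors, 7 were tested and 0 had an adjusted p under 0.05 in edgeR. At an unadjusted p under 0.05, 0 were lower and 1 was higher, against 13.9% and 6.81% of all genes. The higher gene was ERO1B, an oxidase of the endoplasmic reticulum, with 1.43, 2.83 and 3.36 CPM under gas against 4.68, 5.44 and 5.8 CPM after dCAMP (log2FC 1.05, SE 0.31, edgeR adjusted p = 0.221). It held 66 to 262 counts per library. Its log2FC was 0.75 without gas 1, 1.25 without gas 3 and 0.48 in limma on the log2 of FPKM plus 1. DUOX1, the dual oxidase of epithelia, had 241, 207 and 189 CPM against 201, 192 and 182 CPM, which overlapped. NOX1, NOX4 and DUOXA2 had a count of 0 in all 6 libraries. Over all 6 lists, 46 of 47 genes were found and 39 tested, 0 had an adjusted p under 0.05 in edgeR with all 6 libraries. Without gas 3, 14 did, beside 33.1% of all genes. With all 6 libraries 9 of the 39 had an unadjusted p under 0.05, 5 higher and 4 lower, beside 20.7% of all genes.

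**Figure D5:**
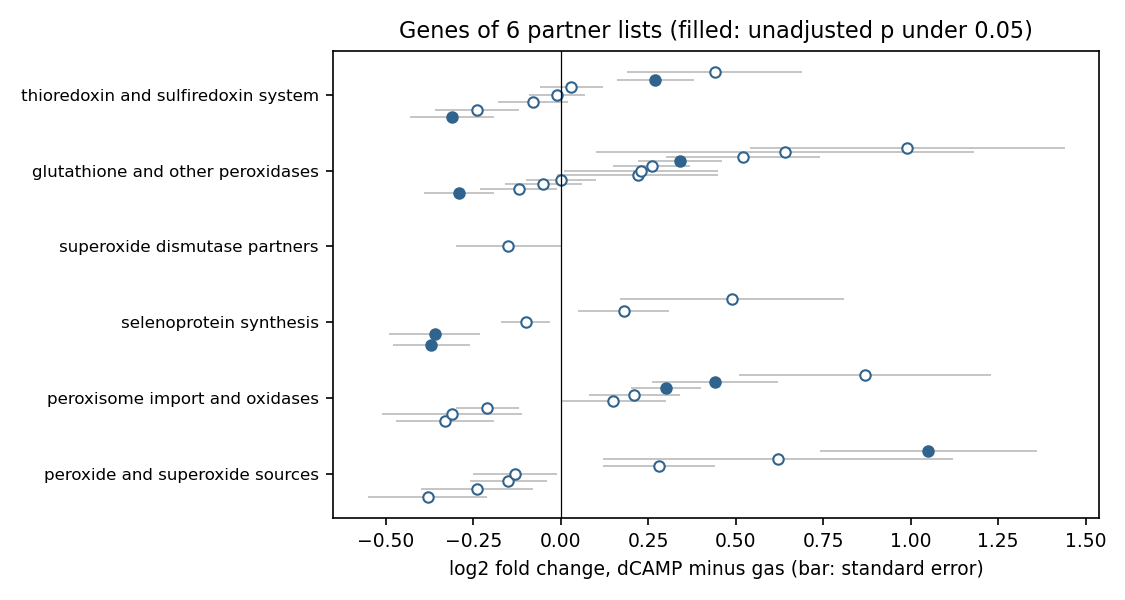
Log2FC (dCAMP over gas, bar for SE) of the 39 tested genes of the 6 lists of partner enzymes, filled where the unadjusted p was under 0.05. The 9 filled points lie on both sides of 0, from −0.37 for SECISBP2 to 1.05 for ERO1B.

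In the transcript table, 6 of the 9 enzymes had 1 transcript, PRDX2 had 2, PRDX1 had 3 and PRDX4 had 7. The main transcript took 99.1% to 99.4% of the counts of PRDX1 and 98.1% to 99.5% of those of PRDX2. PRDX4 was split. Its 1020-base transcript took 58%, 78.1% and 52% of the counts in gas libraries 1, 2 and 3, against 49.9%, 67.9% and 71.9% after dCAMP. Its 1068-base transcript took 31.2%, 15.1% and 31.7% in gas and 42.4%, 22.2% and 18.1% in dCAMP-treated cells, and 3 longer transcripts were listed at 0 throughout. The shares overlapped between the groups. They are estimates of read assignment among transcripts of 1 locus, and no test was made.

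Across the 6 libraries the members fell into patterns of opposite sign. On log2 CPM, Pearson's r was 0.98 between PRDX1 and SOD1, 0.98 between PRDX2 and SOD1 and 0.94 between PRDX3 and SOD2, while it was −0.98 between SOD1 and SOD2 and −0.86 between PRDX2 and PRDX3. CAT had r = 0.83 with SOD2 and −0.95 with PRDX1, and PRDX4 had values of −0.3 to 0.34 with the other 8. The genes most like each member were GATD1 for PRDX1 (r = 0.9983), FAM207A for PRDX2 (0.9996), SRSF3 for PRDX3 (0.9981), LOC111091133 for PRDX4 (0.9904), SPNS1 for PRDX5 (0.9989), PITRM1 for PRDX6 (0.9974), ABCB1 for CAT (0.9987), NME4 for SOD1 (0.9992) and SGPP1 for SOD2 (0.9989). With 6 libraries in which gas 1 lies far from the rest, such values are common. An r of at least 0.9 was reached by 23.2% of the other genes tested for PRDX3 and by 19.0% for PRDX2, but by 3.24% for CAT and 0.388% for PRDX4.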

How the data were processed

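Per the labels and the methods, the authors cleaned the reads of adapters, contaminants and duplicates (FastQC 0.11.7, Trimmomatic 0.38), aligned them, from stranded mRNA libraries, to CanFam3.1 with HISAT2 2.1.0 and used StringTie 2.1.3b for known transcripts. The deposited read counts are whole numbers without normalization, and the deposited FPKM values carry the authors' scaling for length and depth. TPM columns were not used. The 24 rows without a symbol, mitochondrial tRNAs and rRNAs named by their description, held 0.0203% of the counts and were kept. Low counts were filtered with edgeR's filterByExpr.

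Counts were analysed with edgeR 4.0.16 (TMM, prior count 2, quasi-likelihood test, Benjamini-Hochberg over 14708 genes), limma 3.58.1 and DESeq2 1.42.0 in R 4.3.3. Standard errors follow from each log2FC and its F statistic. Steps were tested on simulated data with larger fold changes than those of the members, and without a length trend or outlying libraries. Those runs do not show how the tests behave on libraries like these. The lowess span of the length trend was 0.3.

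Members and lists were chosen with earlier results of these data known. Named genes are the members, 11 fixed partners, further partners with an unadjusted p under 0.05 and the gene most correlated with each member. The values of 1 gene named by this rule are not reported here. Symbols came from the gene table, or through gene IDs from the reference table (UU_Cfam_GSD_1.0, names only). Depth was 43084921 to 54082634 counts per library, and the limit of 3 counts for a count of 0 covers counting error only. Alternatives were DESeq2, other scaling factors (upper-quartile, RLE), other filters (none, or 10 counts in each library), the replicate number as a block, voom weighted by sample quality, log2 FPKM in limma with 1 or 0.1 added, removal of the length trend with and without the block, and dropping each library.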

Additional observations from a re-analysis of the deposited data

How the results depend on the processing

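The log2 fold changes of the 9 members had the same sign under all 11 alternatives and all 6 fits without 1 library (153 values). Of these, 13 had an adjusted p under 0.05, all with voom and sample quality weights or without gas 3. The cause of the differences that follow was not tested.

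Members with an adjusted p under 0.05 numbered 0 (8 with voom and sample quality weights, 0 to 5 without 1 library, the 5 without gas 3). Members with an unadjusted p under 0.05 numbered 2 (8 with voom, 1 with the length trend removed, 1 with that and the replicate block, 1 to 6 without 1 library, the 6 without gas 3). The 2 were both lower in edgeR, but 1 was higher and 1 lower in limma on log2 FPKM. With the replicate block edgeR gave 3, of which 1 was higher and 2 were lower. The members' median log2 fold change of −0.1 was −0.19 with upper-quartile factors and −0.18 to −0.09 without 1 library. Partner genes with an adjusted p under 0.05 numbered 0 (26 with voom, 0 to 14 without 1 library), and those with an unadjusted p under 0.05 numbered 9 (28 with voom, 1 to 22 without 1 library). The partners' median of 0.03 was 0.02 with DESeq2, −0.05 with upper-quartile factors, 0.01 with at least 10 counts in every library, 0.06 with voom, 0.04 with the length trend removed, 0.05 with that and the replicate block, 0.03 with RLE factors, no filter or FPKM, and −0.01 to 0.05 without 1 library. SRXN1 changed sign to 0.01 without gas 1, and TXNIP to −0.05 with upper-quartile factors, −0.04 with the length trend removed, with or without the block, and −0.01 to −0.0 without gas 1, dCAMP 1 or dCAMP 3.

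Over all genes tested, 0 had an adjusted p under 0.05 in edgeR (301 with DESeq2, 8944 with voom, 3 with the log2 of FPKM plus 0.1, 0 to 4953 without 1 library), 3040 an unadjusted p under 0.05 (9541 with voom, 1024 to 7374 without 1 library), and 161 a 2-fold change with it (369 with DESeq2, 279 without a filter, 1010 with voom, 373 with the log2 of FPKM plus 0.1, 474 with the length trend removed and the replicate block, 135 to 1523 without 1 library).

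The replicate numbers are shared between the groups, but deviations of same-numbered libraries correlated at 0.13, 0.02 and 0.05, so the numbers were not taken to pair the samples. The replicate block gave 0 genes with an adjusted p under 0.05 and moved the number past both limits, 2-fold and unadjusted p, from 161 to 435. Of the genes with an unadjusted p under 0.05, 32.9% were higher in dCAMP-treated cells, 50.7% with the block, 50.1% and 47.5% in limma on the log2 of FPKM plus 1 and plus 0.1, and 53.2% with voom.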

Other observations

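Some partners had larger log2 fold changes than any of the 9 enzymes without an unadjusted p under 0.05. They lie outside the rule for naming genes and were chosen after their values were seen. GCLM, the modifier subunit of the enzyme that limits glutathione synthesis, had 29.7, 57.3 and 115 CPM in gas libraries 1, 2 and 3 and 127, 133 and 142 CPM in the dCAMP libraries (log2 fold change 0.99, standard error 0.45, edgeR adjusted p = 0.256). Leaving out gas 3 gave 1.58, and leaving out gas 1 gave 0.63. PEX13, a docking protein of peroxisomal import, had 12.4, 20.2 and 35.9 CPM against 40.5, 41.6 and 42.9 CPM (log2 fold change 0.87, standard error 0.36, edgeR adjusted p = 0.243), and leaving out the same libraries gave 1.31 and 0.56. ERO1A, the paralog of ERO1B, had 12.2, 38.8 and 57.4 CPM against 53.7, 59.7 and 53.8 CPM, and there gas 3 lay inside the dCAMP range (log2 fold change 0.62, standard error 0.5, with 1.09 and 0.2 when those libraries were left out).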
